A study of Hydra vulgaris with 36 samples.

Results

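The genes described here are the most abundant transcripts of whole Hydra polyps whose level differed little between DAPT-treated and control animals at the end of treatment. A gene was a member when its mean over the 36 libraries was at least 500 CPM (counts-per-million, scaled to the column total) and its difference between DAPT and DMSO at 0 h, called D0, lay between -0.7 and 0.7 on a log2 scale. D0 was taken from log2(CPM + 0.5) after the median gene of each library had been set to 0. The rule was met by 248 of 12410 genes, or 2% of the table. Another 35 genes reached 500 CPM but lay outside the bounds of D0, of which 26 were lower and 9 higher in DAPT. The members were chosen by these values, the mean CPM and D0, so the 0 h difference is described below without a test.

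Animals of Hydra vulgaris (strain Basel), a freshwater cnidarian polyp, had gone without food for 24 h before an incubation of 48 h. The treated animals received DAPT at 20 µM in 1% DMSO, and the control animals received 1% DMSO. They were collected at the end of the incubation (0 h) or 3 h and 6 h later, after DAPT had been replaced by 1% DMSO, so animals of all 6 groups had been in the solvent. The groups were DAPT 0 h, DMSO 0 h, DAPT 3 h, DMSO 3 h, DAPT 6 h and DMSO 6 h, each with 6 biological replicates of about 25 pooled animals, and the study set out to find target genes of Notch signalling. Ages and cell types were not given in the labels, and the tissue could not be checked against marker genes because the table names no gene. The labels do not explain the column letters S and P, which were read as DMSO and DAPT; under the opposite reading the directions between treatments would be mirrored.

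DAPT inhibits gamma-secretase, the protease complex that cuts the activated Notch receptor so that its intracellular domain can enter the nucleus and take part in transcription. In Hydra, Notch signalling is known for its part in the maturation of nematocytes, the stinging cells, and in the separation of buds from the parent. The most abundant messenger RNAs of an animal usually include those of ribosomal proteins, the cytoskeleton and secreted products of common cells. They take up much of the sequencing, so that a change in a few of them moves the relative share of every other gene. The identifiers come from a Trinity de novo assembly whose sequences and annotation were not used here, and none matched the reference gene table, so no role is assigned to a member. Levels are given per library and not per transcript length, and levels of different genes are therefore compared only as shares of counts.

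Total counts per library ranged from 5692414 to 15310480. The lowest value of a member in a library was 104.28 expected counts, and 0.258% of the members' values lay under 1000. The 95% Wilson interval of the members' summed share was at most 0.04 percentage points to either side, which covers counting error only. Of the 36 libraries, DMSO 6 h replicate 4 had the highest members' share, the lowest TMM factor (0.6263) and the highest member level. Results that rest on it are given with and without it. By the check of single libraries given near the end, neither its share nor its level was flagged within its group. DAPT 3 h replicate 2 came next in TMM factor (0.7279) and in member level (7.95), and it was not left out alone. In these whole-animal samples, fewer cells of a type and less RNA per cell cannot be told apart.

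The members together took a mean of 57.6% of the counts of a library, with a range of 45.4% to 67.8% over the 36 libraries. At 0 h their share was 56.4%, 59.4% and 61.2% in DAPT (lowest, median and highest of 6 libraries) and 49.4%, 53.0% and 60.4% in DMSO. At 3 h it was 55.1%, 62.0% and 65.1% in DAPT and 47.9%, 56.7% and 63.0% in DMSO. At 6 h the values were 54.9%, 59.6% and 65.4% in DAPT and 45.4%, 53.3% and 67.8% in DMSO. The DAPT libraries had the higher mean and median at each of the 3 times, and the groups overlapped at each time. As mean ± SD (n = 6), the share was 59.2 ± 1.79% in DAPT and 53.6 ± 4.11% in DMSO at 0 h, 61.5 ± 3.42% and 56.2 ± 4.99% at 3 h, and 60.2 ± 3.77% and 55.0 ± 8.13% at 6 h. The differences, DAPT minus DMSO, were 5.58, 5.32 and 5.21 percentage points at 0 h, 3 h and 6 h. Without DMSO 6 h replicate 4 the difference at 6 h was 7.77 points.

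**Figure D1:**
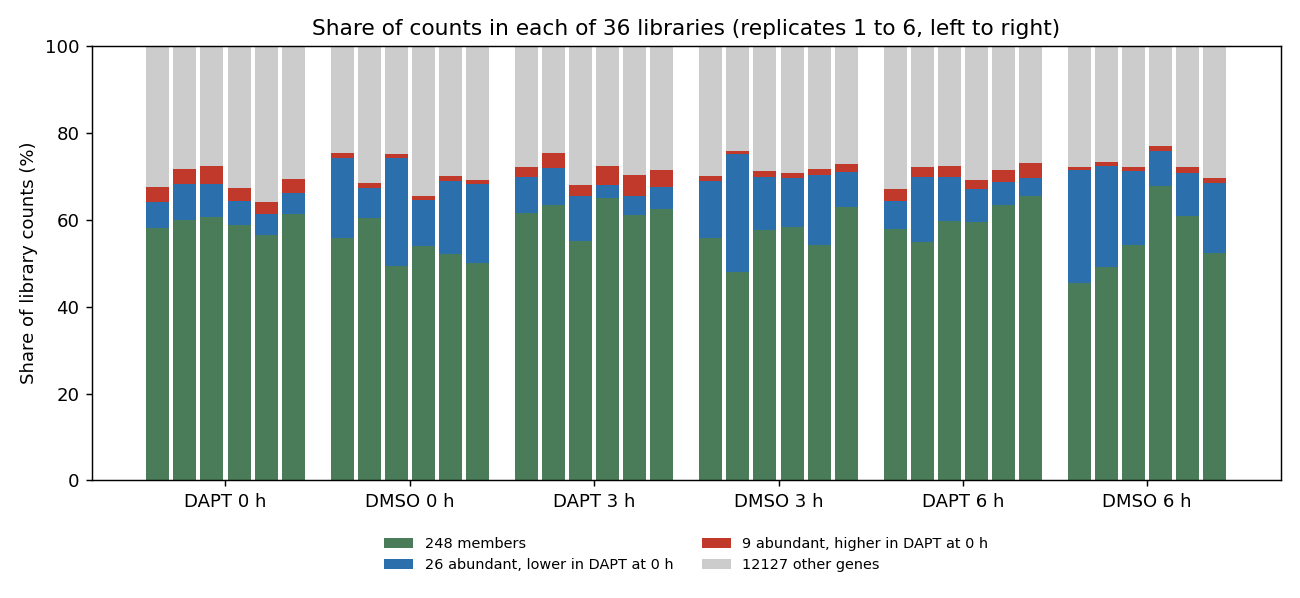
Share of the counts of each library (vertical axis, percent) taken by the 248 members, by the 26 abundant genes lower and the 9 higher in DAPT at 0 h, and by the 12127 other genes, for 6 replicates per group. The members' bars run from 45.4% to 67.8%, and the abundant lower genes take a mean of 6.19% in DAPT and 15.9% in DMSO at 0 h.

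The shares of all genes add up to 100%, so the members' share also moves with the counts of the 35 abundant genes outside the bounds. The 26 abundant genes that the rule left out as lower in DAPT took 6.19% of the counts in DAPT and 15.9% in DMSO at 0 h, 6.54% and 14.6% at 3 h, and 8.06% and 16.7% at 6 h. The 9 left out as higher took 3.29% in DAPT and 1.07% in DMSO at 0 h, 3.58% and 1.28% at 3 h, and 2.65% and 1.02% at 6 h. When the counts of these 35 genes were removed from the totals, the members held 65.4 ± 2.82% in DAPT and 64.7 ± 3.17% in DMSO at 0 h, 68.4 ± 2.94% and 66.7 ± 1.67% at 3 h, and 67.4 ± 2.51% and 66.5 ± 4.53% at 6 h. The differences between treatments were then 0.754, 1.64 and 0.825 percentage points, each smaller than the SD of the DAPT libraries at that time. The 35 genes were set apart by D0, and those left out as lower held more counts than those left out as higher. Both the members' higher share in DAPT at 0 h and the smaller difference outside the 35 thus follow in part from the rule. Of the 26 lower genes, 25 at 3 h and 24 at 6 h still lay at least 0.7 lower in DAPT, so the same choice bears on the shares at these times. Whether these genes account for the members' higher share was not tested. Without DMSO 6 h replicate 4, the DMSO libraries at 6 h held 64.9 ± 2.53% (n = 5) on these totals, and the difference was 2.43 points.

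Between times, the members' share in DAPT was 2.28 points higher at 3 h and 0.961 points higher at 6 h than at 0 h. In DMSO it was 2.54 points higher at 3 h and 1.33 points higher at 6 h than at 0 h. Without DMSO 6 h replicate 4 the last of these became -1.23 points. These differences are smaller than the SD within the later group, and they share the 0 h libraries on which the members were chosen.

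A few members carried much of the sum. The counts of 7 members made up 25% of the members' counts, those of 33 made up 50%, those of 87 made up 75% and those of 159 made up 90%. Mean levels reached 1000 CPM in 133 members, 5000 CPM in 21 and 10000 CPM in 7. The most abundant member, TRINITY_DN3888_c0_g1, took 4.37% of the counts on average, more than any other member. It was followed by TRINITY_DN2196_c0_g1 with 2.43%, TRINITY_DN196_c0_g1 with 2.37%, TRINITY_DN1149_c1_g1 with 2.01% and TRINITY_DN107_c0_g1 with 1.60%. The next were TRINITY_DN5866_c1_g1 with 1.16%, TRINITY_DN3627_c0_g1 with 1.09%, TRINITY_DN2224_c0_g1 with 0.864%, TRINITY_DN242_c0_g1 with 0.818% and TRINITY_DN1576_c0_g1 with 0.808%. Together these 10 held 13.7% to 22.6% of a library.

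TRINITY_DN3888_c0_g1 took 3.09%, 4.63% and 5.70% of the counts in DAPT at 0 h (lowest, median, highest) and 2.92%, 4.78% and 6.39% in DMSO. At 3 h it took 2.78%, 3.55% and 7.67% in DAPT and 2.46%, 3.40% and 4.35% in DMSO. At 6 h the shares were 3.25%, 5.45% and 6.57% in DAPT and 2.44%, 4.12% and 6.19% in DMSO. Its groups overlapped at each time, and the highest value, in DAPT 3 h replicate 2, lay far above the other 5 libraries of that group, which reached 4.25%. In the fit across all genes its log2 difference between DAPT and DMSO was 0.39 ± 0.33 (SE) at 3 h and 0.11 ± 0.33 at 6 h, with edgeR adjusted p = 0.702 and 0.98.

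TRINITY_DN196_c0_g1 was the least steady of the 10. Its share ranged from 0.722% in DMSO 0 h replicate 4 to 6.18% in DMSO 6 h replicate 4. In DMSO at 0 h it took 3.81%, 4.17% and 5.21% in replicates 1 to 3, and 0.722%, 1.06% and 0.922% in replicates 4 to 6. In DAPT at 0 h the 6 libraries ran from 0.966% to 2.97%, within the range of the DMSO libraries. TRINITY_DN2196_c0_g1, of nearly the same mean share, varied far less and took between 1.26% and 3.20%, with its lowest value in DMSO 6 h replicate 4, the library where TRINITY_DN196_c0_g1 was highest. Their SDs between replicates, pooled over the 6 groups on the log2 scale, were 0.21 for TRINITY_DN2196_c0_g1 and 0.98 for TRINITY_DN196_c0_g1.

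**Figure D2:**
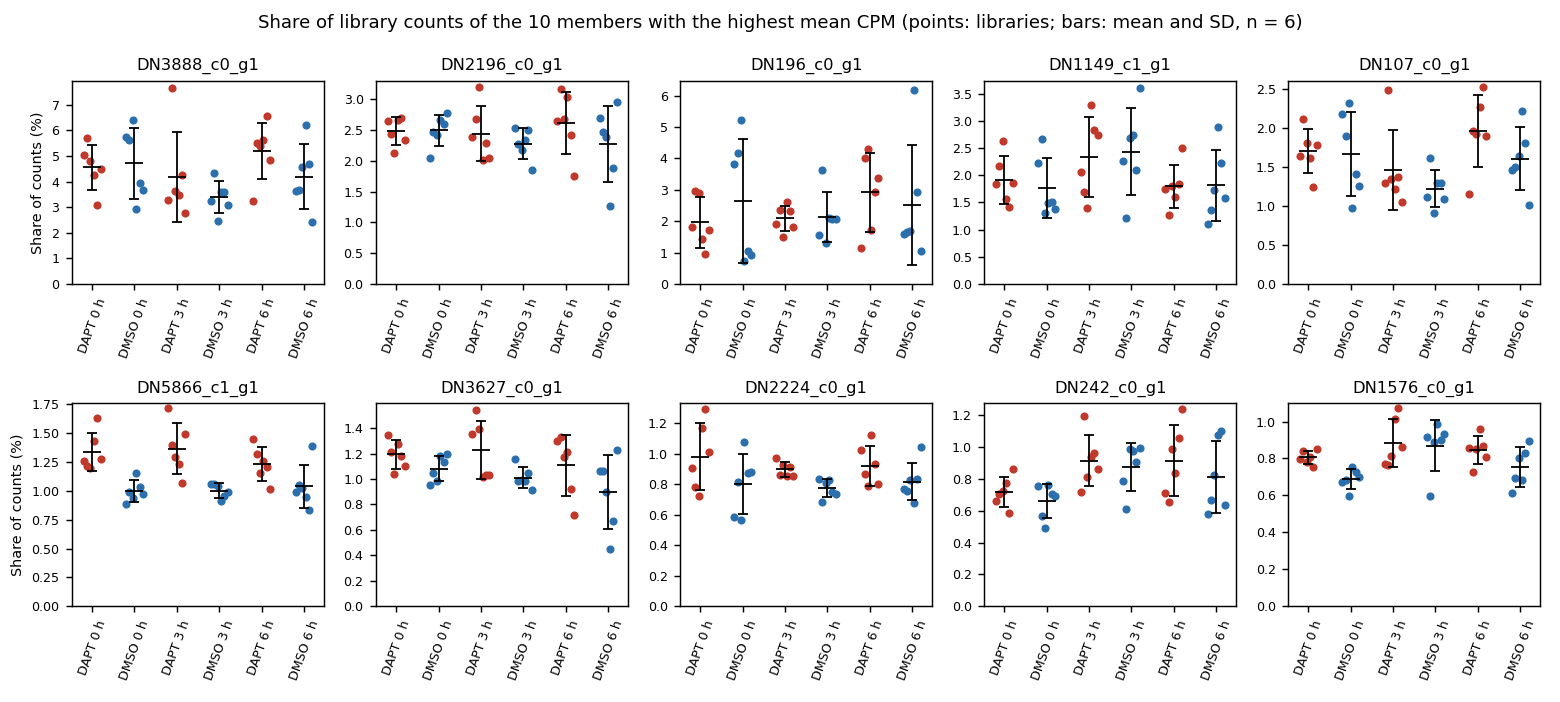
Share of library counts (vertical axes, percent) of the 10 members with the highest mean CPM in the 6 groups, DAPT in red and DMSO in blue, with the mean and SD of 6 libraries. At 3 h the points of DAPT and DMSO are separate for TRINITY_DN5866_c1_g1 and TRINITY_DN2224_c0_g1, which was not counted over all genes. TRINITY_DN3888_c0_g1 reaches 7.67% in a DAPT 3 h library, and TRINITY_DN196_c0_g1 spans 0.722% to 6.18%.

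Apart from its share, the level of the typical member was followed relative to the median gene of each library, a scale that a few abundant genes cannot move. The median member lay 7.25 ± 0.17 log2 units above the median gene in DAPT and 7.07 ± 0.11 in DMSO at 0 h. At 3 h it lay 7.59 ± 0.24 above in DAPT and 7.30 ± 0.15 in DMSO, and at 6 h 7.38 ± 0.21 in DAPT and 7.38 ± 0.45 in DMSO (SD, n = 6 each). At 3 h, 4 of the 6 DAPT libraries lay above all DMSO libraries, the groups otherwise overlapping. At 6 h the DMSO libraries ran from 7.02 to 8.20, and the highest of them was replicate 4. Without it the DMSO level at 6 h was 7.22 ± 0.23 (n = 5), and the DAPT level lay 0.16 above it.

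**Figure D3:**
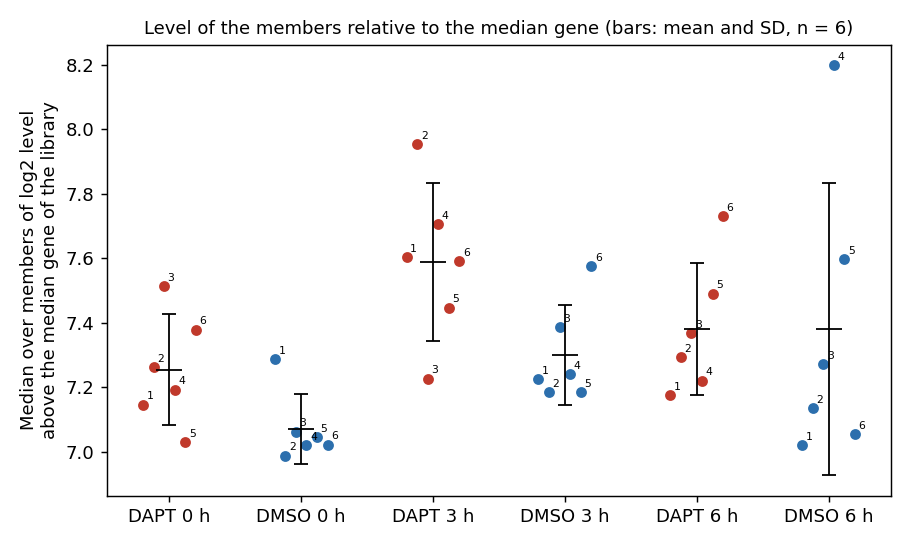
Median over the 248 members of the log2 level above the median gene of the library (vertical axis), for each library, DAPT in red and DMSO in blue, with replicate numbers and the mean and SD of 6 libraries. DMSO 6 h replicate 4 lies at 8.20 and the DAPT 3 h libraries between 7.23 and 7.95.

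The treatment contrasts at 3 h and 6 h compare none of the libraries of D0, although the minimum of 500 CPM was a mean over all 36 libraries. They were tested in a single fit over 12253 genes, all 248 members among them. A gene was called when its adjusted p was under 0.05 (edgeR quasi-likelihood F test, Benjamini-Hochberg). The fit took the scaling and the spread of each gene from all 36 libraries, so the 0 h libraries of the rule enter the SE and p of these contrasts. With only the compared groups in the fit, 2 members were called at 3 h and 0 at 6 h. The counts that follow are those of the fit over all libraries. At 3 h, 4 members were called higher in DAPT and 0 lower. Among all tested genes 6.46% were called, 1.61% higher and 4.85% lower, so the 4 members, 1.61% of 248, matched the share of all genes called higher. With a replicate number left out, the count in either direction was 2 without number 1, 2, 3 or 6, 3 without number 5 and 1 without number 4. Of the members called without number 2, 1 was lower in DAPT. With all libraries no member was called lower, 1 had an unadjusted p under 0.05 in that direction, and DESeq2 and limma-voom called 0 lower as well. At 6 h, 2 members were called higher and 0 lower, against 5.08% of all genes, 1.13% higher and 3.94% lower. This count, in either direction, was 1 without number 1 or 2, 0 without number 3 or 5, and 8 with library totals alone. Of the members called without number 6, 1 was lower in DAPT. In the lower direction 3 members had an unadjusted p under 0.05 at 6 h, and DESeq2 and limma-voom again called 0. The values of single members below are TMM-scaled CPM, counts-per-million of library totals corrected by edgeR's trimmed mean factors, which keep a few abundant genes from setting the scale.

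The median log2 difference of the members between DAPT and DMSO was 0.19 at 3 h, where 208 of 248 (83.9%) were positive, against a median of 0.04 over all genes, of which 55.7% were positive. With a replicate number left out it ran from 0.09 to 0.26, the lowest without number 2, where the median of all genes stayed at 0.04. With library totals without the 35 abundant non-members it was 0.05, against -0.07 over all genes. The median at 6 h was -0.03, with 108 (43.5%) positive, against -0.02 over all genes, of which 47.7% were positive. Without DMSO 6 h replicate 4 the members' median at 6 h was 0.16, against 0.03 over all genes, so the sign at 6 h turned with that library. Scaling to library totals alone also gave a positive median at 6 h, 0.11 for the members and 0.10 for all genes. For the change of the DAPT-DMSO difference between 3 h and 6 h, 0 members and 0% of all genes were called by edgeR, and DESeq2 and limma-voom called 0 as well. An unadjusted p under 0.05 was found in 3 members and 319 genes.

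TRINITY_DN769_c0_g1 differed between treatments at both tested times and was among the steadiest members. Its TMM-scaled CPM was 713.1, 791.7 and 831.7 in DAPT at 3 h (lowest, median, highest) and 522, 547.5 and 654.7 in DMSO, without overlap. The 6 h values were 642.5, 782.2 and 895.6 in DAPT and 518.7, 561.8 and 794.7 in DMSO, where replicate 4 of DMSO reached into the DAPT range. The log2 difference was 0.45 ± 0.11 (SE) at 3 h, with edgeR adjusted p = 0.0046, and 0.39 ± 0.11 at 6 h, with adjusted p = 0.0209. At 0 h, inside the bounds of the rule, its mean was 703 ± 52.6 in DAPT and 528.6 ± 43.3 in DMSO. The difference at 3 h amounts to 1.37-fold, and its SD between replicates on the log2 scale was 0.16. The overlap of its groups depended on the scale. As shares of counts it took 0.05655% to 0.08467% in DAPT and 0.04951% to 0.05765% in DMSO at 3 h, with overlap. At 6 h the shares were 0.07266% to 0.0839% in DAPT and 0.04977% to 0.05937% in DMSO, without overlap.

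TRINITY_DN299_c0_g1 was the other member called at both times. It had 935.5, 1396 and 1936 TMM-scaled CPM in DAPT at 3 h and 691, 819.9 and 1229 in DMSO, and the groups overlapped. In the 6 h libraries it had 799.5, 1169 and 1286 in DAPT and 623.6, 698.7 and 805.6 in DMSO, the lowest DAPT library lying just under the highest DMSO library. The log2 difference was 0.68 ± 0.17 at 3 h (edgeR adjusted p = 0.00896) and 0.63 ± 0.17 at 6 h (adjusted p = 0.0196). Its D0 was 0.66, near the upper bound of the rule. At 0 h it had 963.9 to 1488 TMM-scaled CPM in DAPT and 641.7 to 947.7 in DMSO, so a difference of similar size was present at the end of the incubation.

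TRINITY_DN5866_c1_g1, the sixth most abundant member, was called at 3 h alone. It had 10170, 14480 and 19260 TMM-scaled CPM in DAPT and 8938, 10100 and 13030 in DMSO, a log2 difference of 0.49 ± 0.14 with edgeR adjusted p = 0.0323. The groups overlapped on this scale. As a share of counts it took 1.067% to 1.71% in DAPT and 0.909% to 1.063% in DMSO at 3 h, narrowly without overlap. At 6 h the log2 difference of TRINITY_DN5866_c1_g1 was 0.12 ± 0.14 with adjusted p = 0.914, and its change between the times was -0.37 ± 0.20 with adjusted p of 1. TRINITY_DN2224_c0_g1, not called at 3 h (edgeR adjusted p = 0.25), was also separate as a share, with 0.853% to 0.973% in DAPT and 0.685% to 0.831% in DMSO. How many of all genes were separate as shares was not counted, so these separations are given as a description.

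TRINITY_DN5140_c0_g1 lay just inside the upper bound of the rule, with D0 of 0.68, and had the largest fold among the members called between treatments. It had 954.7, 1351 and 3025 TMM-scaled CPM in DAPT at 3 h and 532.2, 728.6 and 917 in DMSO, without overlap. As shares of counts these groups overlapped, with a lowest DAPT value of 0.08875% and a highest DMSO value of 0.09144%. The log2 difference was 1.10 ± 0.34 at 3 h with edgeR adjusted p = 0.0446, and 0.96 ± 0.34 at 6 h with adjusted p = 0.119. Its call at 3 h was lost when any of the 6 replicate numbers was left out, with adjusted p up to 0.25 without number 2, whose DAPT library held the highest value. TRINITY_DN5866_c1_g1 lost its call without each number other than 5, with adjusted p up to 0.217 without number 1, and TRINITY_DN299_c0_g1 at 3 h without number 2, 4 or 5. TRINITY_DN769_c0_g1 at 3 h kept its call without each number, while at 6 h it lost it without number 2, 3, 5 or 6, and TRINITY_DN299_c0_g1 without number 1, 3, 4 or 5.

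Groups that did not overlap at all in TMM-scaled CPM were found at 3 h for 2 members, TRINITY_DN769_c0_g1 and TRINITY_DN5140_c0_g1, both higher in DAPT. That is 0.806% of the members, against 0.914% of all tested genes, and 0 members were separate as lower, against 3.66%. None of the members was separated in this way at 6 h, against 0.702% of all genes separated as higher and 2.08% as lower. Such counts were not made for shares of counts, so the separations as shares named above have no part of all genes beside them.

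Over time most members had positive fitted changes, while few or none passed the test. The contrasts over time share the 0 h libraries with the rule. In DAPT, the median log2 change of the members was 0.33 at 3 h against 0 h, with 235 of 248 positive, and 0.16 at 6 h against 0 h, with 184 positive. In DMSO it was 0.25 at 3 h, with 203 positive, and 0.27 at 6 h, with 200 positive. The medians over all genes lay between -0.03 and -0.01 in these contrasts. Of all genes, 49% at 3 h and 46.7% at 6 h were positive in DAPT, and 49.2% and 47.9% in DMSO. Members varied together between libraries, as described below, so their counts are not independent observations. Scaling to library totals alone moved the median of all genes to -0.28 and -0.21 in DAPT and to -0.14 and -0.19 in DMSO, at 3 h and 6 h. The members' medians were then 0.06 and -0.04 in DAPT and 0.12 and 0.05 in DMSO, above the median gene in each case, with the sign in DAPT at 6 h turned. Without DMSO 6 h replicate 4, the members' median in DMSO at 6 h against 0 h was 0.10.

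Depth moved with time: the mean total in DAPT was 11059300 counts for 0 h, 7574400 for 3 h and 8855190 for 6 h, and in DMSO 11168400 for 0 h, 9192860 for 3 h and 7372750 for 6 h. Its part in the changes over time was not tested.

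By edgeR, 0 members and 0% of all genes were called in DMSO at 3 h against 0 h, in DMSO at 6 h against 0 h, and in DAPT at 3 h against 0 h. An unadjusted p under 0.05 was found in 26, 61 and 68 members in these contrasts, and in 1134, 1376 and 1061 genes. DESeq2 called 0, 1 and 0 members, and limma-voom 0 in each. In DAPT at 6 h against 0 h, 5 members were called, each higher at 6 h, or 2.02% of the members, against 0.539% of all genes, 0.326% of them higher.

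TRINITY_DN9343_c0_g1 had 955, 1514 and 1583 TMM-scaled CPM in DAPT at 6 h (lowest, median, highest) and 671.8, 920.3 and 1071 at 0 h, a log2 change of 0.63 ± 0.14 (edgeR adjusted p = 0.0347). TRINITY_DN4814_c1_g1 had 430.3, 663.5 and 868.4 at 6 h and 328.2, 427.5 and 478.4 at 0 h, a change of 0.67 ± 0.16 (adjusted p = 0.0347). TRINITY_DN6963_c0_g1 showed the widest range, with 796, 1840 and 3649 at 6 h and 649.6, 868.4 and 1227 at 0 h, a change of 1.10 ± 0.26 (adjusted p = 0.0383). In each of these 3 members the lowest DAPT 6 h library was replicate 1, and it overlapped with the 0 h libraries. TRINITY_DN5676_c0_g1 had 472.2, 898.9 and 928.5 at 6 h and 408.3, 477.2 and 603.2 at 0 h, a change of 0.72 ± 0.17 (adjusted p = 0.0383). TRINITY_DN5374_c0_g1 had 447.1, 623.4 and 748.6 at 6 h and 387.7, 445.4 and 507.2 at 0 h, a change of 0.49 ± 0.12 (adjusted p = 0.0473). In both, replicate 1 was again the lowest DAPT 6 h library.

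The count of 5 depended on the libraries and the scaling. It was 11 without replicate number 1, of which 10 were higher and 1 lower, and 0 without number 2, 3, 4, 5 or 6. It was 9 without DMSO 6 h replicate 4 and 0 with library totals alone. In DMSO the same 5 genes had log2 changes at 6 h against 0 h of 0.54 for TRINITY_DN9343_c0_g1, 0.72 for TRINITY_DN4814_c1_g1, 0.80 for TRINITY_DN6963_c0_g1, 0.32 for TRINITY_DN5676_c0_g1 and 0.37 for TRINITY_DN5374_c0_g1, with edgeR adjusted p between 0.26 and 0.462. Their unadjusted edgeR p in DMSO ran from 4.874e-05 for TRINITY_DN4814_c1_g1 to 0.06834 for TRINITY_DN5676_c0_g1. In DAPT it ran from 0.0001171 for TRINITY_DN9343_c0_g1 to 0.0002508 for TRINITY_DN5374_c0_g1. Whether the change over these 6 h differed between DAPT and DMSO was not tested.

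Between replicates, the members were about as variable as the typical gene and less variable than the 26 abundant genes left out as lower in DAPT. The SD of the level within a group, pooled over the 6 groups, had a median of 0.40 log2 units over the members, 0.76 over the 35 abundant genes outside the bounds and 0.38 over all genes. Within the 35 it was 0.84 over the 26 lower genes and 0.47 over the 9 higher genes, the latter close to the members. A wide spread in the 0 h libraries bears on D0 itself, so the gap between the members and the other abundant genes is given as a description. With library totals alone, without centring on the median gene, these medians were 0.35, 0.68 and 0.43, and the members lay below all genes. Among members the spread was lowest in DMSO 3 h, with a median SD of 0.26, and highest in DMSO 6 h, with 0.46, or 0.33 without replicate 4 of that group. The 0 h, 3 h and 6 h medians in DAPT were 0.30, 0.43 and 0.41, and the 0 h median in DMSO was 0.33. By abundance, the spread was 0.37 for the 115 members under 1000 CPM, 0.42 for the 53 members between 1000 and 2000 CPM, 0.35 for the 59 members between 2000 and 5000 CPM and 0.43 for the 21 members of at least 5000 CPM. Among all genes it was 0.41 under 5 CPM, 0.36 from 5 to 20 CPM, 0.34 from 20 to 100 CPM and 0.36 from 100 to 500 CPM.

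**Figure D4:**
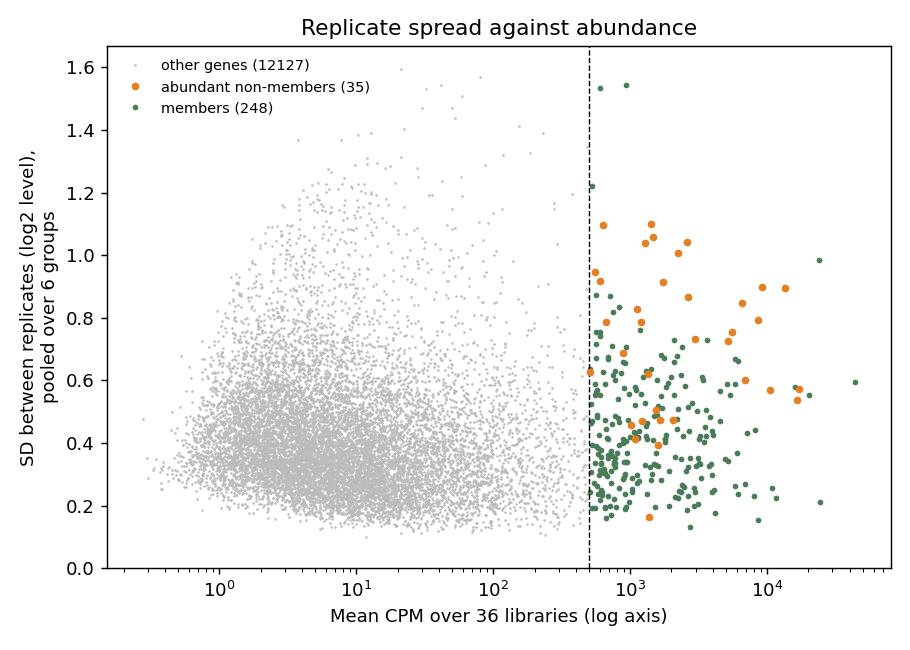
Pooled SD between replicates of the log2 level (vertical axis) against mean CPM (horizontal log axis) for each gene, with the members in green, the 35 other abundant genes in orange and the remaining 12127 genes in grey; the dashed line marks 500 CPM. The members' median is 0.40 and that of the 35 abundant genes 0.76, and 3 members lie above 1.2.

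Over all 36 libraries, the highest share of a member was 2.98 times its lowest at the median, from 1.54 to 121 times, while the median was 13.0 times over the 35 other abundant genes and 5.34 times over all genes. It was under 2 times in 31 members and over 10 times in 10.

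Dividing the variation of each gene in the balanced design, treatment took a median of 2.61% over the members, 52.3% over the abundant genes outside the bounds and 3.31% over all genes. The first and second of these follow in part from the rule. Time took 14.9% over the members and 8.57% over all genes, where 5.71% would be its part of the degrees of freedom. All these parts were computed on the level relative to the median gene alone. That gene had a mean of 3.02, 2.70 and 2.77 log2 CPM in DAPT at 0 h, 3 h and 6 h, and 2.93, 2.78 and 2.69 in DMSO. A shift of the median gene with time enters the part of time, which also shares the 0 h libraries with the rule. Over the members, replicate number took 11.0%, its combination with time 22.5%, treatment by time 2.49%, and the rest 36.7%. Over all genes these 4 were 12.0%, 24.2%, 2.73% and 36.5%. Their parts of the degrees of freedom were 14.3%, 28.6%, 5.71% and 42.9%, each above the members' median.

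The steadiest member was TRINITY_DN1987_c0_g1, with an SD of 0.13 log2 units between replicates. Its share was 0.259%, 0.267% and 0.320% in DAPT at 0 h (lowest, median, highest) and 0.235%, 0.297% and 0.317% in DMSO. The 6 h shares were 0.233%, 0.272% and 0.328% in DAPT and 0.170%, 0.258% and 0.336% in DMSO, with the lowest value again in DMSO 6 h replicate 4. TRINITY_DN2224_c0_g1, with an SD of 0.15, was the only one of the 5 steadiest that was also among the 10 most abundant. The others were TRINITY_DN769_c0_g1 with 0.16, TRINITY_DN880_c0_g1 with 0.17 and TRINITY_DN1468_c0_g1 with 0.18.

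At the other end, TRINITY_DN530_c0_g1, TRINITY_DN3254_c0_g1 and TRINITY_DN1724_c0_g1 had SDs of 1.54, 1.53 and 1.22. TRINITY_DN530_c0_g1 took 0.0299%, 0.0980% and 0.333% of the counts in DAPT at 0 h and 0.0464%, 0.146% and 0.236% in DMSO. Its 6 h shares were 0.00291%, 0.0635% and 0.122% in DAPT and 0.00274%, 0.0640% and 0.276% in DMSO. TRINITY_DN3254_c0_g1 ranged from 0.00208% to 0.213% and TRINITY_DN1724_c0_g1 from 0.00178% to 0.136%. The libraries with the lowest shares were the same for the 3 genes: DMSO 6 h replicate 4, with 0.00274%, 0.00233% and 0.00178%, and DAPT 6 h replicate 6, with 0.00291%, 0.00208% and 0.00368% in the order of the genes above. At 6 h their log2 differences between DAPT and DMSO were -0.53 ± 0.76, -0.36 ± 0.78 and -0.25 ± 0.60, with edgeR adjusted p of 0.937, 0.966 and 0.97.

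TRINITY_DN1609_c0_g1, with an SD of 0.87, ran the other way in these libraries. Its share was highest in DMSO 6 h replicate 4, with 0.156%, and second highest in DAPT 6 h replicate 6, with 0.128%, while the lowest library of all, DAPT 6 h replicate 2, had 0.0197%. TRINITY_DN196_c0_g1 completed the 5 most variable members.

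**Figure D5:**
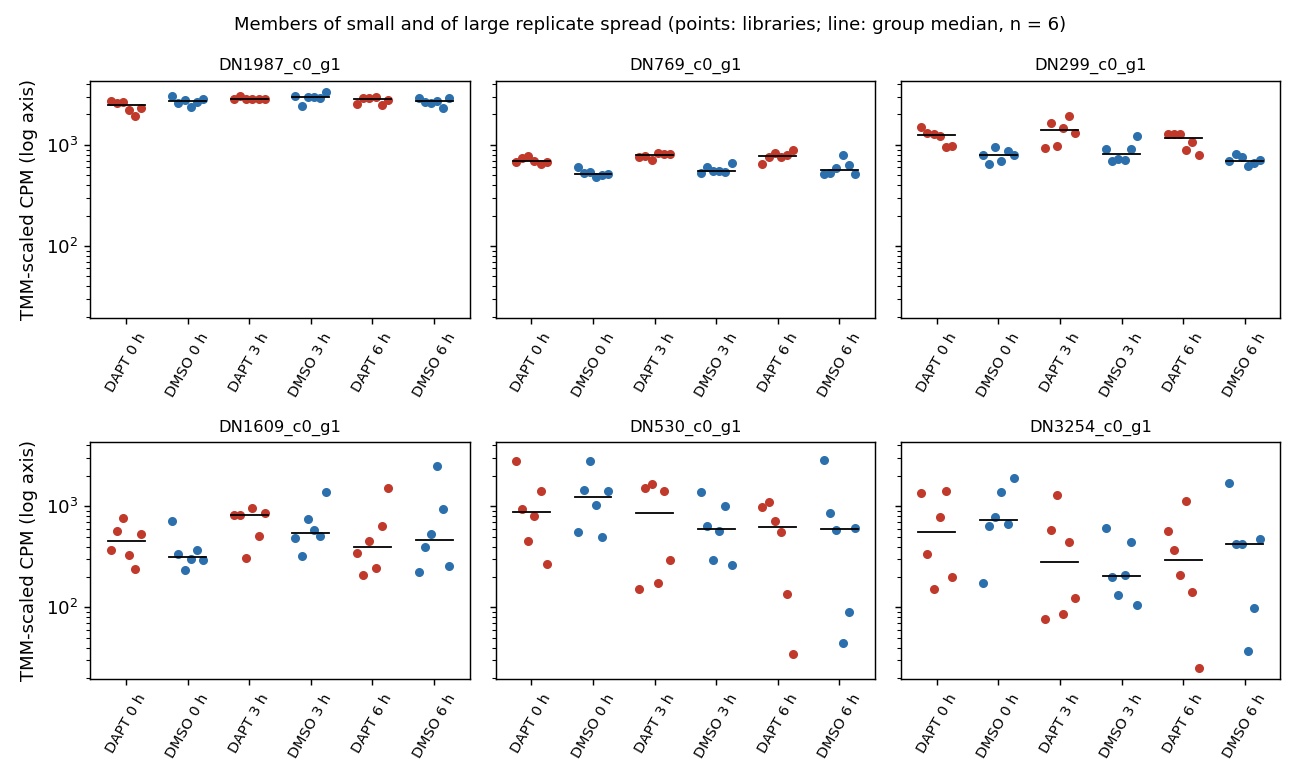
TMM-scaled CPM (vertical log axes) of 6 members in the 6 groups, DAPT in red and DMSO in blue, with the median of 6 libraries as a line. TRINITY_DN1987_c0_g1 and TRINITY_DN769_c0_g1 stay within narrow bands (SD 0.13 and 0.16 on the log2 scale), TRINITY_DN299_c0_g1 spreads more (SD 0.29), while TRINITY_DN530_c0_g1 and TRINITY_DN3254_c0_g1 (SD 1.54 and 1.53) drop in a DAPT 6 h library and a DMSO 6 h library.

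On the scale relative to the median gene of each library, most members varied together between replicates. A shift of that median gene moves all members in the same direction on this scale. The median gene ran from 2.14 to 3.33 log2 CPM over the libraries and was lowest in DMSO 6 h replicate 4. Other gene sets and library totals alone were not analysed in this way, so the pattern is not shown to be particular to the members. A principal component analysis of their deviations from the group means put 64.1% of the variation on the first component, 14.5% on the second and 7.62% on the third. On the first, 202 of the 248 members had the same sign, and the most negative loadings belonged to TRINITY_DN530_c0_g1, TRINITY_DN3254_c0_g1 and TRINITY_DN1724_c0_g1, and the most positive to TRINITY_DN1609_c0_g1. The highest scores were 1.01 in DMSO 6 h replicate 4 and 0.767 in DAPT 6 h replicate 6, and the lowest -0.647 in DMSO 6 h replicate 1 and -0.601 in DAPT 3 h replicate 3. Libraries of both treatments thus lay at either end. The first component held 56.8% without DMSO 6 h replicate 4, 62.2% without the 3 members of largest spread and 53.4% when each member was scaled to the same spread.

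Single libraries held the extreme of many members. DMSO 6 h replicate 4 had the highest level, relative to the median gene, of 111 members, and DAPT 3 h replicate 2 that of 79. The median gene was lowest in these libraries, with 2.14 and 2.28 log2 CPM, which raises every gene on this scale. As shares of counts, DMSO 0 h replicate 3 had the lowest value of 99 members, and DMSO 6 h replicate 4 that of 61. DMSO 6 h replicate 4 also had the highest share of 43 members. Such counts were not made over all genes. In DMSO 6 h replicate 4 the members' summed share lay 14.4 points above the median of its group, and the 3 members that gained most over their own group medians gained 7.83 points together.

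The edges of the rule were not gaps in abundance. At 500 CPM the nearest members had 509.72 and 510.11 CPM, and the nearest genes outside had 497.03 and 492.15. Near the upper bound, D0 was 0.68 in both of the nearest members and 0.80 and 0.87 in the nearest genes outside. Near the lower bound it was -0.58 and -0.53 inside and -0.81 and -0.83 outside. D0 itself had a median of 0.13 over the members, with 180 of 248 above 0, against 0.04 over all genes.

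By their identifiers, 21 members (8.47%) shared a Trinity component and subcomponent with another gene of the table, against 4.42% of all genes. Such genes can be near-identical copies between which the authors' counting could have split reads, and the levels of these members are uncertain to that extent.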

How the data were processed

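Per the labels, strand-specific mRNA libraries were sequenced at 100 bp, and reads were trimmed and filtered. RSEM, Bowtie2 and DESeq2 1.18.1 appear, without roles, in the submitters' processing notes; the sources used here do not describe the assembly. The authors deposited expected counts per gene, estimates that can be fractional, of which 98.95% were not whole. The table holds no 0 (lowest value 0.09), so genes at 0 in any library are outside it.

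Shares and CPM were computed from the column totals of the deposited expected counts. For tests, counts were rounded, filtered with filterByExpr (157 genes removed, no member) and scaled by TMM in edgeR 4.0.16 under R 4.3.3. The quasi-likelihood F test was fitted on 6 group means over 36 libraries, with Benjamini-Hochberg adjustment over 12253 genes. Each SE is that implied by the F statistic. Alternatives were DESeq2 1.42.0, limma-voom (limma 3.58.1), other scalings, filters and thresholds, a replicate block and left-out replicates. The script was run on simulated counts in which every gene had the same spread and only DAPT 3 h held changed genes. These counts did not copy the unequal library factors or the abundant genes that differ between treatments here.

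The members and lists were chosen with earlier results of these data known. Genes named are the 10 most abundant members, up to 5 called in each direction per comparison, the 5 of largest and 5 of smallest replicate spread, the genes next to each bound, and members that made a library stand apart.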

Additional observations from a re-analysis of the deposited data

Results flagged for a closer look

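Within each group of 6, the highest or lowest library was compared with its nearest neighbour (Dixon's criterion) for 17 measures, which made 102 checks. Chance passes about 1 in 20 groups, and 9 checks passed here. Some of the measures are genes named for a large spread or for making a library stand apart (TRINITY_DN196_c0_g1, TRINITY_DN530_c0_g1, TRINITY_DN3254_c0_g1 and TRINITY_DN3888_c0_g1), so the 9 are not set against chance. The median member level in DMSO 0 h replicate 1 was 7.29 log2 units above the median gene, against 6.99 to 7.06 in the other 5 libraries. TRINITY_DN3888_c0_g1 took 7.67% in DAPT 3 h replicate 2, against 2.78% to 4.25% in the others, and TRINITY_DN107_c0_g1 took 2.49% in the same library, against 1.05% to 1.37%. TRINITY_DN196_c0_g1 took 3.62% in DMSO 3 h replicate 2, where the others had 1.31% to 2.11%, and in DMSO 6 h replicate 4 it took 6.18%, where the others had 1.04% to 2.94%. TRINITY_DN1576_c0_g1 took 0.596% in DMSO 3 h replicate 2, the only low value found, against 0.890% to 0.986%. TRINITY_DN530_c0_g1 took 0.276% in DMSO 6 h replicate 1, against 0.00274% to 0.0816%. TRINITY_DN3254_c0_g1 took 0.146% in DAPT 3 h replicate 3, where the others had 0.00705% to 0.0463%, and 0.162% in DMSO 6 h replicate 1, where the others had 0.00233% to 0.0541%.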

How the results depend on the processing

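In these settings no called member changed its direction. Members called between DAPT and DMSO at 3 h numbered 4, and 2 with only the compared groups in the fit, at adjusted p under 0.01, at 1.5-fold or more, or with library totals without the 35 abundant non-members, and 1 to 3 with a replicate number left out. At 6 h they numbered 2, and 8 with library totals alone, 0 with only the compared groups, 0 at adjusted p under 0.01, 1 at 1.5-fold or more, and 0 to 2 with a number left out. Among members called with a number left out, 1 was lower in DAPT without number 2 at 3 h, and 1 without number 6 at 6 h. In DMSO at 6 h against 0 h, DESeq2 called 1. In DAPT at 6 h against 0 h the count of 5 became 0 with library totals alone or without the 35, 0 with only the compared groups and at adjusted p under 0.01, 9 with column median scaling, 11 with DESeq2, 9 without DMSO 6 h replicate 4, and 0 to 11 with a number left out. The fits and values without DMSO 6 h replicate 4 or without the 35 were added after seeing the data. The rule gave 418 members at 250 CPM, 133 at 1000 CPM and 240 to 249 with a number left out. The 0 h share difference was 0.754 points outside the 35, which the rule had set apart by D0. With a number left out, the share difference ran from 4.46 to 6.78 points at 0 h, 3.27 to 6.88 at 3 h and 3.65 to 7.90 at 6 h. The cause was not tested.

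Of all calls, 75.1% were lower at 3 h and 67.6% with column median scaling; at 6 h, 77.7%, and 66.2% with library totals alone; in DAPT at 6 h against 0 h, 39.4%, and 52.6% with library totals alone, 21.8% with column median scaling. Same-numbered DAPT and DMSO libraries had correlated deviations of -0.583 to 0.532 over 18 pairs, and a DAPT library matched its own number best in 5 of them, so the numbers were not taken to pair the samples. With the replicate block, 4 members were called at 3 h, 2 at 6 h, 4 in DAPT at 6 h against 0 h, and 0 in the others.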
